A study of Mus musculus with 4 samples.

Results

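The genes described here encode the transcription factors of the ChREBP, Myc and Max network: *Mlxipl* (ChREBP), *Mlxip* (MondoA) and their partner *Mlx*, the Myc genes *Myc*, *Mycn* and *Mycl1*, their partner *Max*, and the Max-binding repressor genes *Mxd1*, *Mxd4* and *Mxi1*. These 10 genes, of 24157 gene symbols and lncRNAs in the deposited table, were taken from the table by their symbols, with earlier results of these data known. For 9 of them the table lists the symbol itself, and *Mycl1* is listed under its newer symbol *Mycl*. RNA-seq libraries were made from total RNA of isolated islets of wild-type male C57bl6 mice, 3 months of age. Islets of several mice were pooled, kept overnight in RPMI at 11 mM glucose and held for 2 h at 2.8 mM glucose. They were then incubated at 2.8 mM glucose, 2 libraries, or at 16.8 mM glucose, 2 libraries. The design text gives 12 h for both incubations, whereas in the sample labels the treatment at 2.8 mM lasted 2 h and that at 16.8 mM lasted 12 h, so glucose and culture time cannot be told apart if the labels hold. All islets came from a single pool, so the p-values below measure the spread between libraries of that pool and not between animals.

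All 10 proteins belong to the basic helix-loop-helix leucine zipper family, and each binds DNA as a dimer. ChREBP and MondoA sit in the cytoplasm until glucose metabolites release them. With Mlx they then bind carbohydrate response elements, which are made of E-box-like motifs of the CACGTG type spaced apart, and switch on genes of glycolysis, fat synthesis and feedback on glucose uptake. Myc pairs with Max on CACGTG E-boxes and favours ribosome production, metabolism and growth. The Mxd proteins, Mxi1 and Mnt compete for Max and recruit Sin3 and histone deacetylases, which repress the same E-box genes. In beta cells, ChREBP is known as a mediator of the response to raised glucose, and forced Myc activity is known to impair insulin gene expression and survival.

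Because the network shares the E-box, the promoters of its own genes were read for CACGTG. RefSeq promoters on GRCm38.p6, from 250 bases before to 50 after a start site, covered 9 of the 10 genes with 12 starts. *Myc* was not among them. CACGTG, a palindrome that reads the same on both strands, lay in the promoters of 4 of these genes, *Mlxipl*, *Mlx*, *Max* and *Mxd4*, at 1 start each. Of all 32851 starts in the table, 7.15% hold it. The motif began 98 bases before the upstream start of *Mlxipl*, 40 before that of *Mlx*, 3 before that of *Max* and 219 before that of *Mxd4*. *Mnt*, a further Max partner described below, has it 123 bases before its start, while the promoters of the Max partners *Mxd3* and *Mga* lack it. For comparison, the sequence around the carbohydrate response element motif of *Txnip* is printed last. There a pair of CACGAG, a variant that occurs on either strand in 6.47% of starts, stands 5 bases apart, beginning 85 bases before the start. A pair of CACGTG or CACGAG with this spacing was found on 4 starts in all, 0.0122%, and in none of the members' promoters. These are matches of letters and not binding sites. The windows are shown 5′ to 3′ on the strand of the gene, with the motif in capitals.
Mlxipl upstream start, chr5:135089765-135089824, plus strand: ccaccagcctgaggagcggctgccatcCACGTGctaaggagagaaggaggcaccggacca
Mlx, chr11:101087223-101087282, plus strand: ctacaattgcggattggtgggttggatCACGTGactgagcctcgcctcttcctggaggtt
Max, chr12:76962221-76962278, minus strand: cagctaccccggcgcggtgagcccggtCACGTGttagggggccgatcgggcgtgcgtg
Mxd4, chr5:34187897-34187956, minus strand: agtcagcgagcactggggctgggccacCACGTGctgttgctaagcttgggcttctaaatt
Mnt, chr11:74830774-74830833, plus strand: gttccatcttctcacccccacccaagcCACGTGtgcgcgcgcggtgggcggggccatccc
Txnip, chr3:96557845-96557915, plus strand: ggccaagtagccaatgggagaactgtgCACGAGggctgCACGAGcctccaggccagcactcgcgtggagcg

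The upstream *Mlxipl* start is of use in reading its values, because ChREBPβ, a shorter and more active form, is known to arise from an alternative first exon upstream of the main one. In NCBIM37, the build of the deposited table, this RefSeq promoter matched once and placed the start 17001 bp before the start of the main transcript. The *Mlxipl* gene in the GENCODE annotation of that build, chr5:135582761-135614254, begins at the main start and leaves that first exon out. The deposited table has a single *Mlxipl* entry and no coordinates, so the extent of the entry is inferred from this annotation. If the entry has this extent, its RPKM values sum over forms that share the body of the gene and do not separate them.

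The deposited values are RPKM, reads of a transcript scaled to its length in kilobases and to the depth of its library. Depth was taken as the read total at which low values were nearest to whole reads over the genomic span. It came to between 50790000 and 60700000 reads per library. At these depths, 71.7% to 73.7% of low values were whole reads, to within 0.05 reads, when the length was the genomic span with introns, and 23.1% to 25.1% when it was the exons. No depth was fitted to the exons, so this contrast favours the span by construction. If the span was the length used, the levels of genes with long introns are understated. Whole islets are a mixture of cells. In the mixture, fewer cells of a type and less RNA per cell cannot be told apart. The 7 endocrine markers were all present, and their summed RPKM value was 26900 and 23600 at 2.8 mM against 48000 and 44200 at 16.8 mM, with 4 of the 7, *Ins1*, *Ins2*, *Iapp* and *Chga*, called higher. Most of the sum was *Ins2*, at 18136 and 15943 RPKM at 2.8 mM and 30018 and 27396 RPKM at 16.8 mM. *Gcg*, *Sst* and *Ppy* did not pass, with log2 fold changes of -0.10, 0.44 and 0.21. The 6 exocrine markers summed to between 84.2 and 428 RPKM, higher in replicate 2 than in replicate 1 at both concentrations, and none of the 6 was called. Markers of leukocytes summed to 6.91 to 9.99 RPKM, of stromal cells to 1.32 to 2.72 and of endothelial cells to 0.992 to 1.92. Those of duct cells summed to 19.7 and 16.5 RPKM at 2.8 mM and 27.2 and 33.8 RPKM at 16.8 mM. Of these 12 markers 1, of duct cells, was called, and none was absent from all libraries. Markers with a mean under 1 RPKM were not tested and could not be called. The lowest means were 0.155 RPKM for duct, 0.0207 for leukocyte, 0.376 for stromal and 0.292 for endothelial markers. The part of these differences in the results below was not tested.

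Among the network genes, *Myc* fell 3.42-fold at 16.8 mM, *Mlxipl* fell to 0.765 of its level, and no member rose in the main test. The *Mlxipl* call lay close to the threshold. After quantile normalization or median centring it was lost, and *Mlx* was called higher. The main test was limma on log2(RPKM + 0.5) over all 7867 transcripts whose mean reached 1 RPKM, with p-values adjusted by Benjamini-Hochberg and called under 0.05. It covered 5 members, *Mlxipl*, *Mlx*, *Myc*, *Max* and *Mxd4*, of which 2 were lower and 0 higher. *Myc* reached the minimum mean through the libraries at 2.8 mM. Of all transcripts tested 33.4% were called, 10.7% higher and 22.8% lower, and the median log2 fold change was -0.11. A log2 change below is the log2 fold change of 16.8 mM relative to 2.8 mM, and SE is its standard error. The share of calls that were higher was 31.9% as deposited, 42.3% after quantile normalization and 44.1% after median centring. The other 5 members, *Mlxip*, *Mycn*, *Mycl1*, *Mxd1* and *Mxi1*, lay under the minimum and were covered by a fit with limma's voom method to reads reconstructed from the RPKM values (17489 transcripts whose mean reached 20 reads). Its changes come from log2 reads scaled to depth, without the 0.5 RPKM that shrinks the changes of low genes. In that fit 4 of the 10 members were lower, *Mlxipl*, *Mlxip*, *Myc* and *Mycl1*, and 2 were higher, *Mxd1* and *Mxi1*, against 28.7% of all transcripts lower and 13.4% higher (42.1% in all). *Mycl1* reached the 20 reads through the libraries at 2.8 mM. With limma and no minimum, *Myc* alone of the 10 was called, against 9.13% of 28047 transcripts, 2.96% higher and 6.17% lower. By plain values, the groups did not overlap for 8 of the 10 members, 3 higher and 5 lower. This held for 59.4% of the 22481 genes and lncRNAs with a mean above 0, 21.6% higher and 37.8% lower, so separated groups were common in these libraries.

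**Figure D1:**
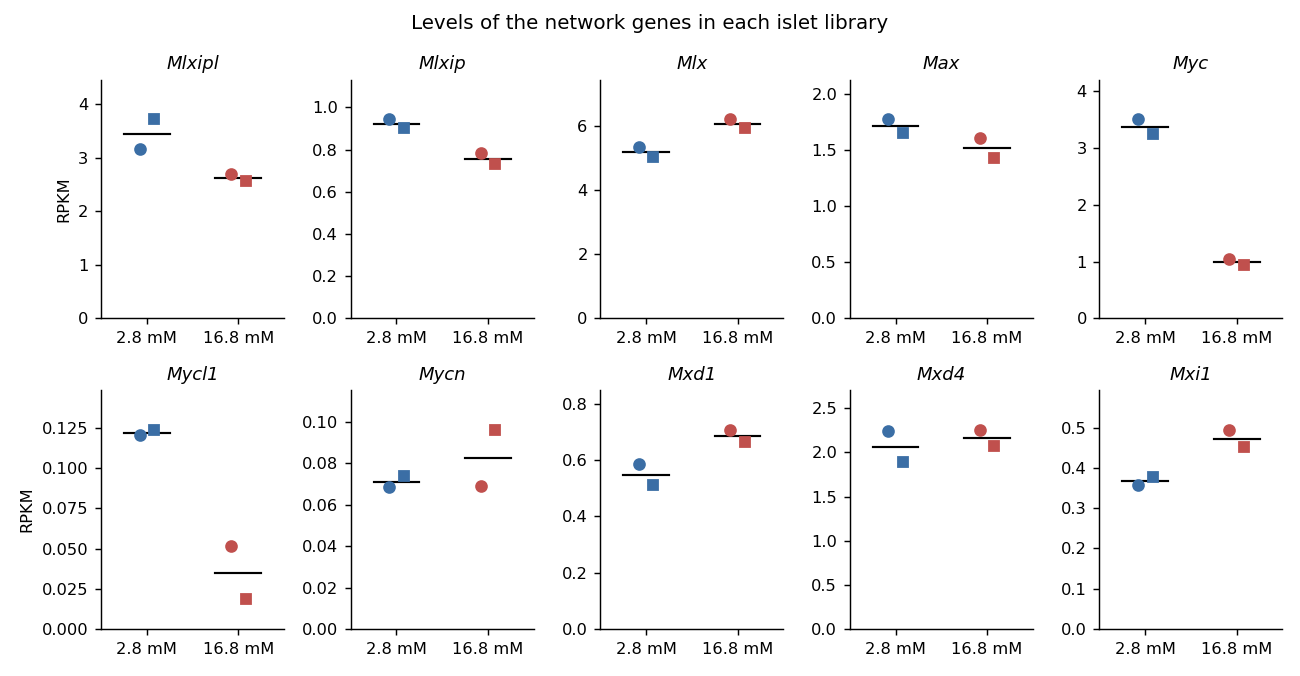
RPKM values of the 10 network genes in each library (vertical axis, from 0, with a scale of its own for each gene) at 2.8 mM glucose (blue) and 16.8 mM glucose (red). Circles are replicate 1, squares replicate 2 and bars the mean of the 2 libraries. The groups overlap for *Mycn* and *Mxd4* and are apart for the other 8 genes, with the widest gaps for *Myc* and *Mycl1*.

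*Mlxipl* encodes ChREBP, the glucose-responsive activator of glycolytic and lipogenic genes. Its RPKM value was 3.16 and 3.71 in the libraries at 2.8 mM and 2.69 and 2.56 at 16.8 mM. Both libraries at 16.8 mM were lower than both at 2.8 mM, and the libraries at 2.8 mM differed more from each other than those at 16.8 mM. The means were 3.43 ± 0.391 RPKM (SD, n = 2) and 2.63 ± 0.0889 RPKM (SD, n = 2), a log2 change of -0.33 (SE 0.10, adjusted p = 0.048 by limma). This call lay close to the threshold. Leaving out replicate 2 at 2.8 mM gave -0.23 (adjusted p = 0.28 by limma), replicate 1 at 16.8 mM -0.36 (adjusted p = 0.068) and replicate 2 at 16.8 mM -0.30 (adjusted p = 0.15), and after quantile normalization or median centring the value was -0.24 (adjusted p = 0.15 in each). Over all alternatives the adjusted p ran from 0.0028 to 0.28 and the log2 change from -0.43 to -0.23, always lower at 16.8 mM. In the fit to reconstructed reads it was -0.38 (SE 0.10, adjusted p = 0.0054 by voom).

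*Mlxip*, on chr5:123844807-123915306 of NCBIM37, encodes MondoA, the relative of ChREBP best known from muscle. It stood at 0.943 and 0.901 RPKM at 2.8 mM and at 0.786 and 0.730 RPKM at 16.8 mM. The groups did not overlap, and the ratio of the means, 0.822, was nearer to 1 than that of *Mlxipl*. Its mean of 0.84 RPKM was under the minimum for the main test. In the fit to reads it was lower at 16.8 mM by a log2 change of -0.28 (SE 0.09, adjusted p = 0.023 by voom), and without the minimum the limma value of -0.18 had an adjusted p of 0.11. A second *Mlxip* entry of the table was lower in level, at 0.474, 0.458, 0.391 and 0.370 RPKM in the same order of libraries. Its log2 ratio of means, -0.29, was close to the -0.28 of the first entry. A transcript of the opposite strand, *Gm15747*, overlaps *Mlxip* over 3160 bp, and whether strand was used in counting is not stated.

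*Mlx*, on chr11:100948591-100953521, encodes the partner that both Mondo proteins need to bind DNA. It was the member with the highest RPKM value, 5.35 and 5.04 at 2.8 mM and 6.21 and 5.94 at 16.8 mM. Both libraries at 16.8 mM were higher than both at 2.8 mM, in the opposite direction to *Mlxipl* and *Mlxip*. From 5.19 ± 0.219 to 6.08 ± 0.186 RPKM (SD, n = 2 each), the log2 change was 0.21 (SE 0.10) and did not pass the test (adjusted p = 0.15 by limma). It passed after quantile normalization, at 0.28 (adjusted p = 0.012), and after median centring, at 0.29 (adjusted p = 0.011 by limma), and the adjusted p over all alternatives lay between 0.011 and 0.44. The level of *Mlxipl* relative to *Mlx*, both per kilobase of span, was 0.591 and 0.737 at 2.8 mM and 0.433 and 0.431 at 16.8 mM, lower in both libraries at high glucose. That of *Mlxipl* relative to *Mlxip* was 3.35 and 4.12 at 2.8 mM and 3.42 and 3.51 at 16.8 mM, so these groups overlapped. *Mlx* shares 385 bp with *Psmc3ip* on the opposite strand, which stood at 0.527 and 0.483 RPKM on average at 2.8 and 16.8 mM.

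*Myc*, on chr15:61816946-61821929, encodes the growth-promoting partner of Max. Its RPKM value was 3.51 and 3.24 at 2.8 mM and 1.04 and 0.933 at 16.8 mM. The libraries of a group lay close together, and both at 16.8 mM were far below both at 2.8 mM. The means were 3.37 ± 0.186 and 0.987 ± 0.0757 RPKM (SD, n = 2 each), and the log2 change was -1.38 (SE 0.09, adjusted p = 0.00016 by limma). In the fit to reads, without the 0.5 RPKM, it was -1.77 (SE 0.14, adjusted p = 1.2e-07 by voom). Only 1.7% of the transcripts tested had a larger change in either direction. *Myc* was number 42 by size and number 15 by p-value among the 5133 transcripts whose value was lower at 16.8 mM. It passed in each of the 16 alternatives that gave a test, with log2 changes between -1.77 and -1.14. When every library had to reach 1 RPKM it was not tested, because replicate 2 at 16.8 mM was under that level. In the main test *Myc* reached the minimum mean of 1 RPKM through the libraries at 2.8 mM, as its mean at 16.8 mM was 0.987 RPKM.

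*Mycl1*, on chr4:122672895-122679728, encodes L-Myc and was more than an order of magnitude lower than *Myc* in each library. It stood at 0.121 and 0.124 RPKM at 2.8 mM and at 0.0516 and 0.0185 RPKM at 16.8 mM. The libraries at 2.8 mM were alike, those at 16.8 mM differed from each other, and the groups did not overlap. The ratio of the means was 0.287, near that of *Myc* at 0.292. These values rest on 6 to 46 reads per library. The mean of 20 reads that the fit required was reached through the libraries at 2.8 mM. In the fit to reads the log2 change was -1.89 (SE 0.43, adjusted p = 0.0022 by voom). Under the limma test without a minimum it was -0.22 and had an adjusted p of 0.068, the 0.5 RPKM added being larger than the values themselves.

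*Mycn*, on chr12:12942902-12948720, encodes N-Myc, best known from embryonic and neural tissue. It was at 0.0685 and 0.0737 RPKM at 2.8 mM and at 0.0688 and 0.0960 RPKM at 16.8 mM, on 17 to 28 reads per library. The groups overlapped, and with a log2 change of 0.18 (SE 0.37, adjusted p = 0.72 by voom) a difference was not detectable at this depth. Of the summed RPKM of the Myc genes, *Myc* itself made up 94.9% and 94.3% at 2.8 mM and 89.6% and 89.1% at 16.8 mM, so the sum followed *Myc*.

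**Figure D2:**
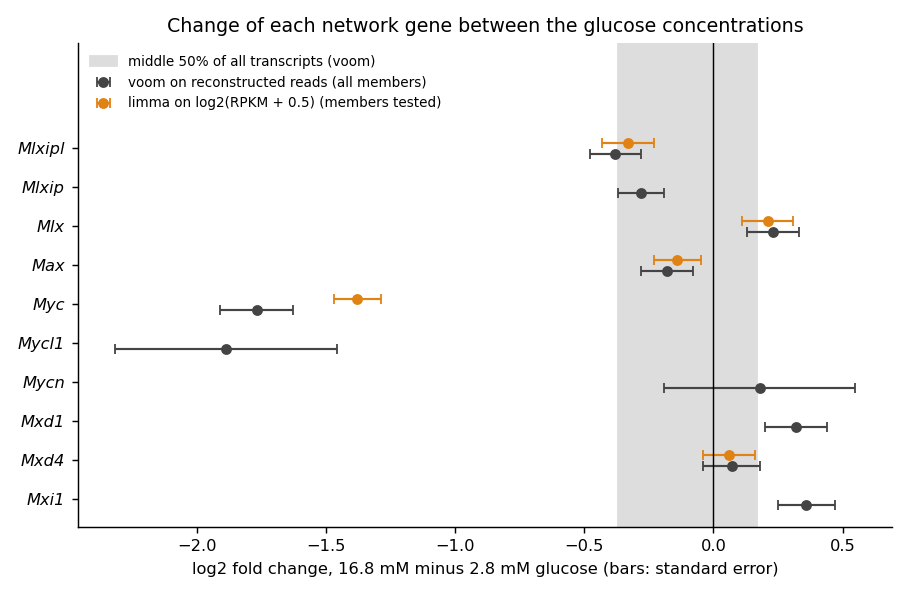
Log2 fold change of each network gene, 16.8 mM minus 2.8 mM glucose (horizontal axis), by limma on log2(RPKM + 0.5) for the 5 members tested (orange) and by voom on reconstructed reads for all 10 (black), with standard errors as bars. The grey band holds the middle 50% of all 17489 transcripts in the voom fit, from -0.37 to 0.17, and *Myc* and *Mycl1* lie far to its left at -1.77 and -1.89.

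*Max*, on chr12:78038256-78063235, encodes the shared partner of the Myc and Mxd proteins. Its RPKM value was 1.77 and 1.65 at 2.8 mM and 1.61 and 1.42 at 16.8 mM. The groups were apart by less than the replicates at either concentration differed. The log2 change was -0.14 (SE 0.09), close to the median of all transcripts, and did not pass (adjusted p = 0.26 by limma, 0.18 by voom). The level of *Myc* relative to *Max*, per kilobase of span, was 1.98 and 1.96 at 2.8 mM and 0.648 and 0.655 at 16.8 mM. The replicates of this ratio were nearly equal, and its change was that of *Myc*.

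*Mxd4*, on chr5:34516536-34530369, encodes Mad4, a repressor of quiescent and differentiated cells, and had the highest RPKM value of the Max-binding repressors among the members. It was at 2.24 and 1.89 RPKM at 2.8 mM and at 2.25 and 2.07 RPKM at 16.8 mM. The groups overlapped, and the log2 change of 0.06 (SE 0.10) did not pass (adjusted p = 0.68 by limma). Without replicate 2 at 2.8 mM the value turned to -0.04, again without passing (adjusted p = 0.86).

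*Mxd1*, on chr6:86597038-86619153, encodes Mad1, which rises as many cell types differentiate. Its values were 0.586 and 0.512 RPKM at 2.8 mM and 0.706 and 0.665 RPKM at 16.8 mM. Both libraries at 16.8 mM were higher, and the ratio of the means was 1.25. In the fit to reads its log2 change was 0.32 (SE 0.12, adjusted p = 0.047 by voom), at the edge of the threshold, and in limma without a minimum 0.18 with an adjusted p of 0.16.

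*Mxi1*, on chr19:53384996-53450300, encodes a further antagonist of Myc. It stood at 0.357 and 0.378 RPKM at 2.8 mM and at 0.494 and 0.452 RPKM at 16.8 mM. The groups did not overlap, and the ratio of the means was 1.29. The log2 change in the fit to reads was 0.36 (SE 0.11, adjusted p = 0.011 by voom), and in limma without a minimum 0.16 with an adjusted p of 0.11. The table lists *Mxi1* with 3 entries, which overlap in their reads, and the log2 ratios of means were 0.36, 0.35 and 0.31. A gene of the opposite strand, *Gm10197*, overlaps *Mxi1* over 201 bp.

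The order of the levels depended on the length used. By the mean RPKM value over the 4 libraries, per kilobase of span, *Mlx* led at 5.63, followed by *Mlxipl* at 3.03, *Myc* at 2.18, *Mxd4* at 2.11, *Max* at 1.61, *Mlxip* at 0.84, *Mxd1* at 0.617 and *Mxi1* at 0.42, and *Mycl1* and *Mycn* came last at 0.0786 and 0.0767. The neighbours *Mlxipl* and *Myc*, *Myc* and *Mxd4*, and *Mycl1* and *Mycn* had overlapping ranges. The place of *Myc* turned with glucose. It was higher than *Mxd4* and *Max* in both libraries at 2.8 mM and lower than both genes in each library at 16.8 mM. The span exceeds the summed exons by a factor of 1.99 for *Mycl1* and 2.12 for *Myc*, which have short introns, and by 12.6 for *Max* and 12.7 for *Mxi1*. Values rescaled to exon length are an upper limit if reads in introns were counted too, which was not tested. Rescaled in this way, *Mlxipl* led at 26.2, ahead of *Max* at 20.4, *Mxd4* at 20.3 and *Mlx* at 15.2, and *Mxi1* and *Myc* stood at 5.32 and 4.63. Of these, *Myc* was higher in both libraries at 2.8 mM, at 7.44 and 6.88 against 4.52 and 4.79, and *Mxi1* in both at 16.8 mM. On that scale the ranges of *Mlxipl* and *Max*, *Max* and *Mxd4*, *Mxi1* and *Myc*, *Myc* and *Mxd1*, and *Mycn* and *Mycl1* overlapped. On either scale the change of a gene between concentrations is the same.

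Summed over the Myc genes, the RPKM value was 3.70 and 3.44 at 2.8 mM and 1.16 and 1.05 at 16.8 mM. Summed over *Mxd1*, *Mxd4* and *Mxi1* it was 3.18 and 2.78 at 2.8 mM and 3.45 and 3.19 at 16.8 mM. The Myc sum was lower in both libraries at 16.8 mM by a wide gap, and the Mxd sums were higher by less than the replicates at 2.8 mM differed. The ratio of Myc to Mxd sums was 1.16 and 1.24 at 2.8 mM and 0.336 and 0.328 at 16.8 mM. Per exon length it was 0.272 and 0.288 against 0.0789 and 0.0774, so the ratio was lower at 16.8 mM on both scales, while Myc transcripts exceeded Mxd transcripts at 2.8 mM on the scale of the span alone.

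**Figure D3:**
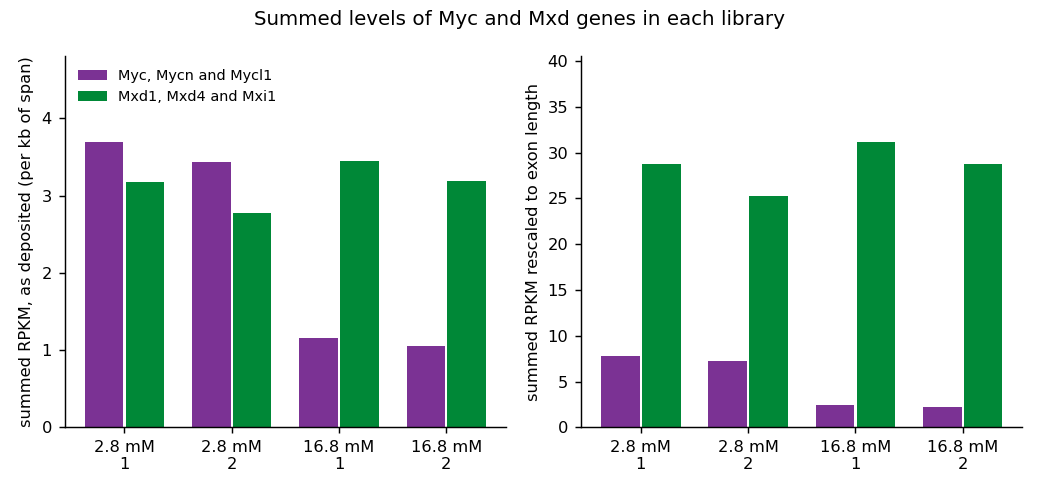
Summed RPKM of *Myc*, *Mycn* and *Mycl1* (purple) and of *Mxd1*, *Mxd4* and *Mxi1* (green) in each of the 4 libraries, as deposited per kilobase of span (left) and rescaled to exon length (right), with each vertical axis starting at 0. The purple bars drop from 3.70 and 3.44 at 2.8 mM to 1.16 and 1.05 at 16.8 mM on the left, while the green bars lie between 2.78 and 3.45.

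The other partners and corepressors were described with a list of 7 genes, the Max partners *Mxd3*, *Mnt* and *Mga* and the corepressor genes *Sin3a*, *Sin3b*, *Hdac1* and *Hdac2*. In the main test 6 were covered, 1 was higher, 2 were lower and 3 did not pass, beside 10.7% higher and 22.8% lower of all transcripts, and the median log2 change of -0.10 was close to the overall -0.11. *Mnt*, the Max-binding repressor found in nearly all cells, fell from 2.57 ± 0.0539 RPKM at 2.8 mM to 1.69 ± 0.131 RPKM at 16.8 mM (SD, n = 2 each). The groups were well apart, and the log2 change was -0.49 (SE 0.09, adjusted p = 0.0068 by limma). *Hdac2*, a histone deacetylase of the Sin3 complex, fell from 2.17 ± 0.145 to 1.52 ± 0.0907 RPKM (SD, n = 2 each), a log2 change of -0.40 (adjusted p = 0.014 by limma). Without replicate 1 at 2.8 mM its adjusted p was 0.072 and with no minimum 0.065, and over all alternatives it ran from 0.00014 to 0.072. *Hdac1* had a log2 change of 0.15 (adjusted p = 0.21) and *Sin3b* of -0.07 (adjusted p = 0.56). *Hdac1* passed after quantile normalization and after median centring (adjusted p = 0.013 in each), and *Sin3b* turned to 0.00 and 0.01 there. *Mxd3*, named after its values were seen, encodes Mad3, known from cells in S phase, and rose from 0.925 ± 0.00969 to 1.42 ± 0.159 RPKM (SD, n = 2 each), a log2 change of 0.42 (adjusted p = 0.011 by limma, 0.072 with no minimum). It reached the minimum mean through the libraries at 16.8 mM.

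For ChREBP and MondoA, 17 target genes from textbook knowledge were followed. The main test covered 9, of which 2 were higher, 3 were lower and 4 did not pass, beside 10.7% higher and 22.8% lower over all transcripts. The median log2 change was 0.05 against -0.11. In the fit to reads 15 were covered, 4 higher, 4 lower and 7 not passing, beside 13.4% higher and 28.7% lower over all. When every library had to reach 1 RPKM, 3 targets were higher and 0 lower. Under that rule 2733 of 6909 transcripts were called, 31.8% of them higher. The 3 targets called lower in the main test were not tested there, as each lay under 1 RPKM at 16.8 mM. *Txnip*, which encodes an arrestin-like brake on glucose uptake and whose motif pair is shown above, had 7.73 and 7.20 RPKM at 2.8 mM and 30.5 and 29.1 RPKM at 16.8 mM. Both libraries at 16.8 mM were far above both at 2.8 mM. The ratio of the means was 3.99, the largest of the 9 genes tested, a log2 change of 1.93 (SE 0.12, adjusted p = 0.00014 by limma). *Arrdc4*, a paralog of *Txnip*, was at 0.893 ± 0.13 and 1.13 ± 0.0438 RPKM (SD, n = 2 each) and did not pass (log2 change 0.23, adjusted p = 0.091). Without replicate 1 at 2.8 mM its adjusted p was 0.036, and over all alternatives 0.012 to 0.45.

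*Acly*, the enzyme that makes cytosolic acetyl-CoA for fat synthesis, rose from 20.4 ± 0.692 to 28.9 ± 0.11 RPKM (SD, n = 2 each), a log2 change of 0.49 (adjusted p = 0.020 by limma). Without replicate 1 or replicate 2 at 16.8 mM its adjusted p was 0.093 or 0.12, within a range of 0.00041 to 0.12 over all alternatives. *Slc2a2*, the glucose transporter of mouse beta cells, was at 2.78 and 2.77 RPKM at 2.8 mM and at 3.28 and 4.43 RPKM at 16.8 mM. Its libraries at 16.8 mM differed widely, and the log2 change of 0.40 did not pass (adjusted p = 0.061). It was 0.59 without replicate 1 at 16.8 mM (adjusted p = 0.0039) and 0.20 without replicate 2 (adjusted p = 0.30), within 0.0037 to 0.30 over all alternatives. Without replicate 2 at 2.8 mM it also passed (adjusted p = 0.049). *Fasn*, the fatty acid synthase, had a log2 change of 0.01 (adjusted p = 0.94).

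*Pklr*, the liver-type pyruvate kinase gene and a classical ChREBP target, fell from 1.48 and 1.38 RPKM to 0.945 and 0.932 RPKM. The groups were far apart relative to the replicates, and the log2 change of -0.42 (SE 0.08) passed (adjusted p = 0.0070 by limma). The other 2 falls, named after their values were seen, were *Fgf21*, a fasting and stress hormone, with a log2 change of -1.17 (adjusted p = 0.0006), and *Khk*, ketohexokinase, at -0.36 (adjusted p = 0.023). *Pklr*, *Fgf21* and *Khk* reached the minimum mean through the libraries at 2.8 mM, and when every library had to reach 1 RPKM none of the 3 was tested. *Khk* lost its call without replicate 1 at 2.8 mM (adjusted p = 0.075), without replicate 2 at 16.8 mM (adjusted p = 0.059) and with no minimum (adjusted p = 0.11).

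**Figure D4:**
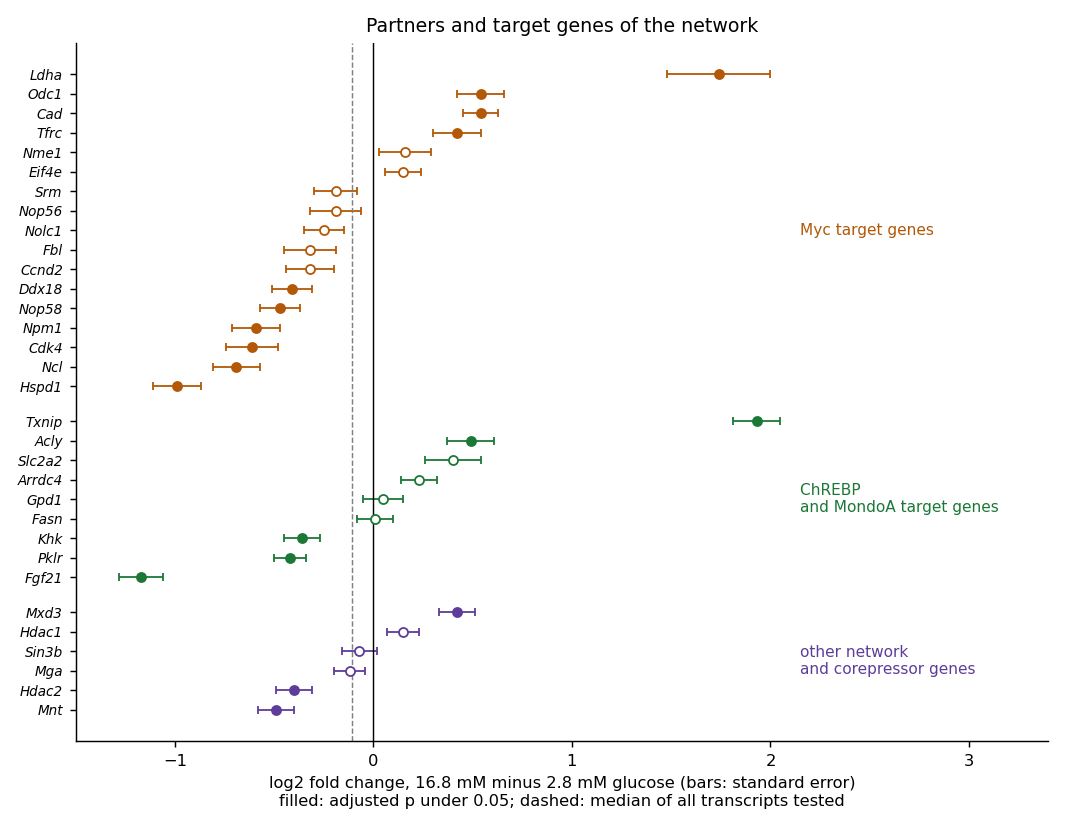
Log2 fold changes, 16.8 mM minus 2.8 mM glucose (horizontal axis), with standard errors, of all genes of the 3 lists that the main test covered: 17 Myc targets (brown), 9 ChREBP and MondoA targets (green) and 6 other network and corepressor genes (purple). Filled circles passed the adjusted p of 0.05, and the dashed line is the median of all transcripts, -0.11. *Txnip* at 1.93 and *Ldha* at 1.74 lie farthest to the right and *Fgf21* at -1.17 farthest to the left.

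For Myc, 19 target genes were followed, of which 17 were tested. Of these, 4 were higher, 6 were lower and 7 did not pass, beside 10.7% higher and 22.8% lower over all transcripts, with a median log2 change of -0.25 against -0.11. In the fit to reads 4 of 19 were higher and 9 lower, beside 13.4% and 28.7% over all, with a median of -0.23 against -0.12. *Hspd1*, the mitochondrial chaperonin, fell from 22.8 and 21.9 RPKM to 11.3 and 10.7 RPKM, a log2 change of -0.99 (SE 0.12, adjusted p = 0.0015 by limma). *Ncl*, encoding nucleolin of the nucleolus, fell from 22.4 and 20.1 RPKM to 13.2 and 12.7 RPKM, a log2 change of -0.69 (adjusted p = 0.0064). *Cdk4*, the cell cycle kinase of early G1, fell from 29.5 and 27.9 RPKM to 19.9 and 17.5 RPKM. For all 3 genes, every library at 16.8 mM was lower than every library at 2.8 mM. The *Cdk4* value was -0.61 (adjusted p = 0.012 by limma), with an adjusted p of 0.10 without replicate 2 at 16.8 mM, 0.056 with no minimum and between 5.8e-05 and 0.10 over all alternatives.

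*Odc1*, the first enzyme of polyamine synthesis and a textbook E-box target of Myc, moved against them. It rose from 20.3 and 19.4 RPKM to 30.2 and 27.8 RPKM, and the groups were apart. Its log2 change was 0.54 (SE 0.12, adjusted p = 0.017 by limma). Without replicate 1 or replicate 2 at 16.8 mM the adjusted p was 0.10 or 0.059, within a range of 9.1e-05 to 0.10. The other genes called, named after their values were seen, were *Npm1* (-0.59), *Nop58* (-0.47) and *Ddx18* (-0.41) among the falls, all of the nucleolus, and *Ldha* (1.74), *Cad* (0.54) and *Tfrc* (0.42) among the rises, in log2 change. These encode lactate dehydrogenase A, the first enzyme of pyrimidine synthesis and the transferrin receptor. *Ldha* varied between replicates at 2.8 mM, at 1.82 and 3.81 RPKM, and stood at 10.7 and 9.39 RPKM at 16.8 mM, so its groups did not overlap. Without a minimum, *Npm1*, *Nop58*, *Ddx18*, *Ldha* and *Tfrc* lost their calls (adjusted p = 0.050 to 0.13 by limma). *Npm1* also lost it without replicate 2 at 16.8 mM (adjusted p = 0.064), *Ddx18* without that library (adjusted p = 0.078) or replicate 1 at 2.8 mM (adjusted p = 0.081), and *Tfrc* without replicate 2 at 2.8 mM (adjusted p = 0.099) or replicate 1 at 16.8 mM (adjusted p = 0.16).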

How the data were processed

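A single table deposited by the authors gives RPKM values of the 4 libraries, with 33923 entries of RefSeq transcripts and lncRNAs on mm9 (NCBIM37). The submitters' processing notes name STAR and bedtools. The methods state counting over RefSeq exons, but whole reads came out far more often with the genomic span as length, at depths fitted to the span alone. Samples were grouped by title, and all columns of sample values were used.

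Identical entries of a symbol were used once (28047 transcripts), and a gene with several was read from the entry of highest mean. log2(RPKM + 0.5) was tested in limma 3.58.1 in R 4.3.3 (variance trend, empirical Bayes moderation, Benjamini-Hochberg adjustment), and reads were reconstructed as RPKM × span × depth for voom. Spans came from GENCODE on NCBIM37, and 87.7% of transcripts had one. Tables and figures used Python 3.11.15, pandas 2.3.3, numpy 2.4.6 and matplotlib 3.10.9. In simulated data with 200 changed among 7867 transcripts, 100% were recovered and 6.1% of calls were unchanged transcripts. The planted changes were larger than those of every member tested except *Myc*, and far fewer transcripts were changed than the main test called. Recovery of smaller changes, and false calls at the real call rate, were thus not tested. Of each list, the 4 tested genes with the highest mean were named, with *Txnip*, *Arrdc4* and *Pklr*. Members and lists were chosen with earlier results of these data known, so no count over them is independent evidence. Alternatives were another scaling, minimum, added RPKM, threshold or entry rule, no trend, the replicate block, voom, and each library left out.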

Additional observations from a re-analysis of the deposited data

How the results depend on the processing

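The 2 libraries per group came from 1 pool, and *Mycl1* and *Mycn* rest on 6 to 46 and 17 to 28 reads per library. Of the 10 members, the 2 called (0 higher, 2 lower) became 1 without the trend, with no minimum, with 1 RPKM in every library, with 1 entry per symbol and at a threshold of 0.01, and 1 to 2 (0 higher, 1 to 2 lower) with a library left out. With 1 RPKM in every library the 1 call was *Mlxipl*, as *Myc* was not tested there. Quantile normalization, median centring and the replicate block each gave 1 higher and 1 lower. Voom gave 6 (2 higher, 4 lower) and with the block 8 (3 higher, 5 lower). Of all 7867 transcripts the main test called 2628, quantile normalization 3730, median centring 3765 and the block 4067. Voom called 7356 of 17489 and with the block 9896. The higher counts of members and listed genes under voom thus stand beside more calls in general. The labels give same-numbered libraries nothing in common but the number. Their deviations from the group means correlated at 0.31 across transcripts, and what they share was not tested. The block took the adjusted p of *Mlxipl* to 0.051 and of *Mlx* to 0.039, and with voom that of *Max* to 0.029.

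Of the other network genes, 3 were called (1 higher, 2 lower). No minimum gave 1 (0 higher, 1 lower), as did a threshold of 0.01, and voom with the block gave 5 (2 higher). Quantile normalization and median centring gave 2 higher, 1 RPKM in every library 0 higher, and single libraries left out 1 to 2 lower. Of the ChREBP targets, 5 were called (2 higher, 3 lower). This became 3 with 1 RPKM in every library (0 lower, the 3 falls not being tested) and at 0.01 (1 higher). Voom gave 8 (4 higher) and its block 9 (5 higher), beside 7356 and 9896 of all 17489 transcripts. No minimum gave 4 higher, and libraries left out gave 3 to 6 with 1 to 3 higher and 2 to 3 lower. Of the Myc targets, 10 were called (4 higher, 6 lower). No minimum gave 4 (2 higher, 2 lower), as did 0.01. Voom with the block gave 17 (12 lower), beside 9896 of 17489 over all transcripts. Libraries left out gave 6 to 10, with 2 to 4 higher and 3 to 7 lower. The cause of these moves was not tested beyond the fewer genes or samples that some settings leave.

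Directions turned for *Mxd4* (-0.04 without replicate 2 at 2.8 mM, up to 0.16 with another library left out), *Sin3b* (0.00 after quantile normalization, 0.01 after median centring) and *Fasn* (-0.06 without replicate 2 at 2.8 mM, -0.01 without replicate 2 at 16.8 mM, up to 0.08 with another left out), none of which passed.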
